A study of Mus musculus with 12 samples.

Results

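The 10 genes described here encode the proteins by which liver senses endotoxin, the lipopolysaccharide of Gram-negative bacteria, and the ligand, antagonist, receptor and signalling proteins of the interleukin-1 (IL-1) pathway: Lbp, Cd14, Tlr4, Ly96, Tlr2, Tifa, Irak3, Il1b, Il1rn and Il1r1. They were chosen by name, and all 10 were found among the 46078 genes of the count table. All 10 also passed the filter on low counts that left 13054 genes for testing. The data are RNA-sequencing counts from the livers of 12 mice with diet-induced obesity, 4 in each of 3 surgical groups, and the comparisons ask how liver transcripts after sleeve gastrectomy differ from those after an equal weight loss by food restriction. All mice were C57BL/6 males, 21 weeks old, that had been fed a high fat diet from early in life, and no transgene or induced mutation is named for any group. The VSG mice had a vertical sleeve gastrectomy, which removes most of the stomach, and then returned to the high fat diet. The Sham-WM mice had a sham laparotomy followed by food restriction that matched their weight to that of the VSG mice. The Sham-Ad lib mice had the same sham operation with unrestricted food. All operated mice received the antibiotic co-amoxiclav, the anti-inflammatory drug meloxicam, xylocaine and buprenorphine, and all were culled in the third week after surgery following some hours without food.

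Each library came from 1 mouse and is named by the animal number that its name shares with the title of a sample, such as 4F. Another field of the labels links the same titles to libraries of different animals. When the libraries were grouped by that field instead, edgeR called 0 of the 10 genes in each of the 3 comparisons, and 0, 1 and 0 of them had an unadjusted p under 0.05 in turn, for VSG and for Sham-WM against Sham-Ad lib and then for VSG against Sham-WM. The libraries held between 15122520 and 19384076 counts. The numbers that end the library names run in a single block within each group, and no label says what they stand for. The groups and a batch following those numbers cannot be told apart. Hepatocyte markers, Alb among them, were abundant in every library, with a sum between 71855 and 141599 CPM (reads of a gene relative to the size of its library, the unit of all levels here).

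Endotoxin in portal blood is bound by lipopolysaccharide binding protein (LBP), which the liver secretes, and is passed by CD14 to the complex of Toll-like receptor 4 (TLR4) with MD-2, the product of Ly96. TLR2 is the receptor for bacterial lipoproteins and also uses CD14. Toll-like receptors and the IL-1 receptor share an intracellular domain and the adaptor MyD88, and both lead to the transcription factor NF-kB. IRAK3 is a brake on this route in macrophages, TIFA is an adaptor that carries a separate signal from bacterial heptose sugars to NF-kB, and the IL-1 receptor antagonist, encoded by Il1rn, occupies the IL-1 receptor without activating it.

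Promoter sequences were read for 6 of the 10 genes, Tlr2, Il1b, Il1rn, Il1r1, Tifa and Irak3, from RefSeq windows of 250 bases before to 50 bases after each annotated start (GRCm38.p6), and none was read for Lbp, Cd14, Tlr4 and Ly96. These 6 genes had 11 windows in all, and both strands were searched for 4 motifs. The NF-kB motif was found in 3 of the 11 windows, against 4.51% of all 32851 windows of the same length. The C/EBP motif (TTNNGNAA) was found in 8 windows, against 40.7% of all windows. The last 2 of the 3 windows of Il1rn overlap and hold the same C/EBP matches, so these are counted in 2 windows. The AP-1 motif (TGANTCA) was found in 1 window, against 7.81%, and the STAT motif (TTCNNNGAA) in 0, against 8.3%. A match is only a run of letters, and binding was not measured. The 5 stretches given here come from the 3 windows with NF-kB matches, from the window of Il1b and from the first of 3 windows of Il1rn, so that the ligand, its blocker and its receptor can be read side by side. They run 5′ to 3′ on the strand of the gene and leave out every base that GENCODE places in an exon of the gene. Capitals mark the motif matches that lie wholly within the stretch.
Tlr2, chr3:83841768-83841858, minus strand, before the gene: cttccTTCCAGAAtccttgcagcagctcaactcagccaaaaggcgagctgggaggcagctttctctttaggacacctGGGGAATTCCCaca
Il1b, chr2:129371140-129371389, minus strand, before the gene: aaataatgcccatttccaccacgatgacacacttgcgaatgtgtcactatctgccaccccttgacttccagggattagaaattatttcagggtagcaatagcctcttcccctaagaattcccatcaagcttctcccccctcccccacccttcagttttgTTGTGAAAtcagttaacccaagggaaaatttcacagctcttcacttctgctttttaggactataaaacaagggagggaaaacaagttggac
Il1rn, chr2:24336610-24336852, plus strand, before the gene: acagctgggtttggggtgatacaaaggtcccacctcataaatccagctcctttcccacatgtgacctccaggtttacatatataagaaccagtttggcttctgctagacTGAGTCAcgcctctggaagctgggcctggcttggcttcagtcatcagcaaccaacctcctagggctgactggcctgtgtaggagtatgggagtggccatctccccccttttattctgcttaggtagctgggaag
Il1r1, chr1:40266336-40266585, plus strand, within an intron of the gene: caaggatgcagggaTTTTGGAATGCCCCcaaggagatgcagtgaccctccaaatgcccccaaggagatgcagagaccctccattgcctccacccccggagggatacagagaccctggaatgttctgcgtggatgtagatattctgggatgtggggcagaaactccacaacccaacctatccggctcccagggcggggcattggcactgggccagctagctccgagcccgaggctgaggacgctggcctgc
Tifa, chr3:127790407-127790654, plus strand, within an intron of the gene: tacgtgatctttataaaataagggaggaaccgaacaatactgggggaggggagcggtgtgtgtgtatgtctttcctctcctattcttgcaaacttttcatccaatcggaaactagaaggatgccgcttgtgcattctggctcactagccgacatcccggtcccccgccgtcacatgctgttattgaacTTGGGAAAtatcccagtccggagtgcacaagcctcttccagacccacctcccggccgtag

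In the Tlr2 stretch the capitals hold a C/EBP match and then 2 NF-kB matches that overlap each other, between 173 and 163 bases before the RefSeq start. A further NF-kB match of Tlr2 spans the start itself and is not shown. The capitals of Il1r1 are a C/EBP match that overlaps an NF-kB match, those of Il1b and Tifa are C/EBP matches, and those of Il1rn are an AP-1 match. The other windows of Il1rn, at internal starts of the gene, hold C/EBP matches and are not shown. The NF-kB match of Tifa lies 34 to 43 bases after the RefSeq start within this second window, outside the printed stretch.

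In all 10 genes the mean level was lowest in Sham-WM, intermediate in Sham-Ad lib and highest in VSG livers. The direct comparison of VSG with Sham-WM separated the groups most often. In it, edgeR called 8 of the 10 genes at an adjusted p under 0.05, all of them higher after VSG, when 15.0% of all tested genes were called higher. The 8 were Lbp, Cd14, Tlr2, Tifa, Irak3, Il1b, Il1rn and Il1r1, and in each of them all 4 VSG libraries lay above all 4 Sham-WM libraries, a pattern that 14.3% of all tested genes showed. DESeq2 called the same number of genes, 8, against 14.9% of the genes it tested. The median log2 ratio of the 10 genes was 2.44, and that of all tested genes was 0.03. The authors state that they used RUVSeq on the surgical mice to take out variation they attribute to batch, without naming the variant of the method. When 2 factors of unwanted variation were estimated from the spread within groups (RUVs, a method of the kind the authors used) and put in the edgeR fit, Il1rn and Tifa alone of the 8 were called, with log2 ratios of 1.97 (adjusted p = 0.00152) and 1.60 (adjusted p = 0.0104).

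Against Sham-Ad lib, the 10 genes had positive log2 ratios after VSG, with a median of 1.21 beside 0.03 for all tested genes. The edgeR test called 2 of them higher, Cd14 and Tifa, when 0.467% of all tested genes were called higher. These were also the 2 genes in which the groups did not overlap, as in 4.87% of all tested genes. DESeq2 called 7 of the 10 higher, against 5.09% of the genes it tested, which added Lbp, Tlr2, Irak3, Il1b and Il1rn.

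After Sham-WM, the 10 genes had negative log2 ratios against Sham-Ad lib, with a median of -0.78 beside 0.00 for all tested genes. The edgeR test called 2 of them lower, Il1rn and Tifa, when 3.45% of all tested genes were called lower. In 3 genes, Lbp, Il1rn and Tifa, all Sham-WM libraries lay below all Sham-Ad lib libraries, as in 8.40% of all tested genes, and DESeq2 called these 3 lower, against 5.16% of the genes it tested. The comparisons of VSG and of Sham-WM with Sham-Ad lib use the same 4 control libraries, so their log2 ratios share the error of those controls. Because liver is a mixture of cells, fewer cells of a type and less RNA per cell cannot be told apart in any of these values.

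**Figure D1:**
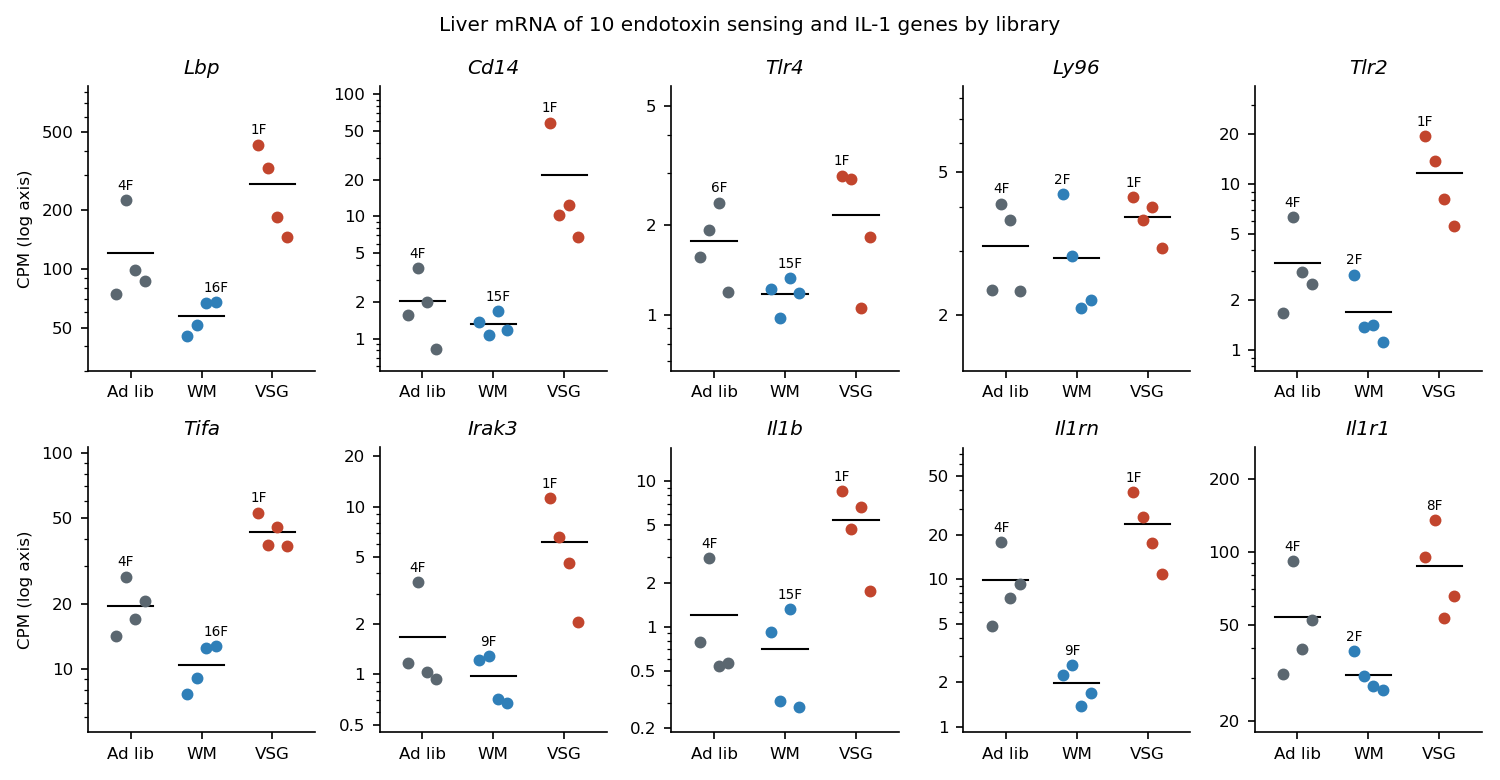
Points show the CPM of each of the 10 genes in each of the 12 libraries on log axes, grouped as Sham-Ad lib, Sham-WM and VSG, with a line at the mean of each group and the number of the highest library beside its point. Library 4F is the highest of the Sham-Ad lib libraries in 9 genes and library 1F the highest of the VSG libraries in 9 genes.

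Values per library are given in the order 3F, 4F, 6F and 10F for Sham-Ad lib, 2F, 9F, 15F and 16F for Sham-WM, and 1F, 8F, 11F and 18F for VSG, as CPM after scaling by TMM factors. Adjusted p-values are from edgeR's quasi-likelihood test with Benjamini-Hochberg adjustment over all 13054 genes. Exact permutation tests of single genes were two-sided and cannot go below p = 0.0286 with 4 libraries against 4.

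Lbp, the gene of the secreted protein that binds endotoxin in blood, lies on the plus strand at chr2:158306493-158332852 (mm10). Its levels were 74.3, 223, 98.0 and 86.8 CPM in Sham-Ad lib, 45.0, 51.3, 66.5 and 67.4 CPM in Sham-WM, and 430.1, 328, 184 and 145 CPM in VSG libraries. Every Sham-WM library lay below every other library, while the lower VSG libraries, 11F and 18F, lay below the highest Sham-Ad lib library, 4F. Lbp rose 4.72-fold in VSG against Sham-WM livers (log2 ratio 2.24 ± 0.39, SE, adjusted p = 0.00205). Against Sham-Ad lib the log2 ratio was 1.17 ± 0.37 (SE) after VSG and -1.07 ± 0.37 (SE) after Sham-WM, and neither passed the edgeR test (adjusted p = 0.0944 and 0.107), whereas DESeq2 gave adjusted p = 0.0249 and 0.0353.

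Cd14, the co-receptor that hands endotoxin to the TLR4 complex on macrophages and neutrophils, lies on the minus strand at chr18:36725067-36726798. Its levels were 1.56, 3.76, 2.00 and 0.816 CPM in Sham-Ad lib, 1.38, 1.08, 1.68 and 1.18 CPM in Sham-WM, and 58.5, 10.2, 12.4 and 6.83 CPM in VSG libraries. All VSG libraries lay above all sham libraries, and library 1F was far above the other VSG libraries. This gene had the largest log2 ratio of the 10 in both comparisons of VSG. Cd14 rose 16.4-fold against Sham-WM (log2 ratio 4.04 ± 0.67, SE, adjusted p = 0.00173) and 10.7-fold against Sham-Ad lib (3.42 ± 0.64, SE, adjusted p = 0.0442). Without library 1F these log2 ratios were 2.87 (adjusted p = 0.00121) and 2.25 (adjusted p = 0.0956). Sham-WM and Sham-Ad lib libraries overlapped, with a log2 ratio of -0.62 ± 0.70 (SE, adjusted p = 0.668).

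Tlr4, the receptor chain that carries the endotoxin signal into the cell, lies on the plus strand at chr4:66827584-66930284. Its levels were 1.56, 1.93, 2.38 and 1.19 CPM in Sham-Ad lib, 1.22, 0.973, 1.33 and 1.18 CPM in Sham-WM, and 2.93, 2.86, 1.05 and 1.82 CPM in VSG libraries. Between 14 and 56 counts lay behind each value. The groups overlapped in every comparison. VSG library 11F was as low as the Sham-WM libraries, Sham-Ad lib library 10F lay within the Sham-WM range, and VSG library 18F was below Sham-Ad lib libraries 4F and 6F. The log2 ratio of VSG to Sham-WM was 0.89 (95% confidence interval 0.19 to 1.59, adjusted p = 0.0584), and without library 11F it was 1.11 (adjusted p = 0.0153). Against Sham-Ad lib the interval ran from -0.38 to 0.99 for VSG and from -1.30 to 0.12 for Sham-WM.

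Ly96, which encodes the MD-2 protein that holds endotoxin inside the TLR4 complex, lies on the plus strand at chr1:16688051-16709611. Its levels were 2.34, 4.08, 3.68 and 2.32 CPM in Sham-Ad lib, 4.33, 2.92, 2.09 and 2.19 CPM in Sham-WM, and 4.24, 3.68, 3.99 and 3.07 CPM in VSG libraries. The highest library of all 12 was Sham-WM library 2F, and no group stood apart. Ly96 had the smallest log2 ratio of the 10 genes in all 3 comparisons, 0.37 for VSG against Sham-WM (95% confidence interval -0.21 to 0.95, adjusted p = 0.319), 0.26 for VSG against Sham-Ad lib (-0.31 to 0.84) and -0.11 for Sham-WM against Sham-Ad lib (-0.69 to 0.47).

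Tlr2, the receptor for bacterial lipoproteins, lies on the minus strand at chr3:83836272-83841767, and the stretch with overlapping NF-kB matches given above lies directly before it. Its levels were 1.67, 6.33, 2.98 and 2.51 CPM in Sham-Ad lib, 2.85, 1.38, 1.43 and 1.13 CPM in Sham-WM, and 19.5, 13.8, 8.13 and 5.57 CPM in VSG libraries. The VSG libraries lay above all others but for 18F, which was below Sham-Ad lib library 4F. Tlr2 rose 6.89-fold in VSG against Sham-WM livers (log2 ratio 2.79 ± 0.47, SE, adjusted p = 0.00191). Its log2 ratio of 1.80 ± 0.45 (SE) against Sham-Ad lib had an adjusted p of 0.0592 by edgeR and of 0.00344 by DESeq2, and that of Sham-WM against Sham-Ad lib was -0.99 ± 0.48 (SE, adjusted p = 0.25).

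Tifa, the adaptor that oligomerises when the kinase ALPK1 meets bacterial heptose sugars, lies on the plus strand at chr3:127789805-127832164. Its levels were 14.2, 26.7, 17.1 and 20.7 CPM in Sham-Ad lib, 7.64, 9.06, 12.5 and 12.8 CPM in Sham-WM, and 52.9, 37.4, 45.6 and 37.0 CPM in VSG libraries. The groups did not overlap in any comparison, and Tifa was the only one of the 10 genes called in all 3. It rose 4.12-fold in VSG against Sham-WM livers (log2 ratio 2.04 ± 0.22, SE, adjusted p = 0.000112) and 2.20-fold against Sham-Ad lib (1.13 ± 0.21, SE, adjusted p = 0.0435), and it fell by 0.91 on the log2 scale in Sham-WM against Sham-Ad lib (± 0.21, SE, adjusted p = 0.0221). Leaving out single libraries kept the log2 ratio of VSG to Sham-Ad lib between 1.00 and 1.32, but its adjusted p passed the threshold in 3 of the 12 fits and reached 0.155 without 3F. The Sham-WM value lost its call when 4F (adjusted p = 0.0598), 10F (0.0568), 2F (0.0622) or 9F (0.0561) was left out.

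Irak3, the kinase-like brake on MyD88 signalling, lies on the minus strand at chr10:120141648-120202130. Its levels were 1.17, 3.54, 1.03 and 0.941 CPM in Sham-Ad lib, 1.22, 1.28, 0.714 and 0.675 CPM in Sham-WM, and 11.3, 6.59, 4.59 and 2.05 CPM in VSG libraries. Library 4F was apart from the other Sham-Ad lib libraries and above VSG library 18F, while all Sham-WM libraries were below all VSG libraries. Irak3 rose 6.25-fold in VSG against Sham-WM livers (log2 ratio 2.64 ± 0.54, SE, adjusted p = 0.00444). The log2 ratios against Sham-Ad lib were 1.86 ± 0.51 (SE, adjusted p = 0.0697) after VSG and -0.78 ± 0.55 (SE, adjusted p = 0.459) after Sham-WM. Between 12 and 189 counts lay behind each value. The exons of Irak3 share 192 bases, 5.22% of its exon bases, with those of Tmbim4 on the opposite strand, which had between 754 and 1023 counts and mean levels of 48.2 CPM in Sham-Ad lib, 45.2 CPM in Sham-WM and 59.3 CPM in VSG livers. The strand setting of the counting is not given in the sources used here, so reads from the shared bases may have been credited to either gene or to none.

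Il1b, the IL-1 beta ligand that macrophages, monocytes and neutrophils release, lies on the minus strand at chr2:129364570-129371139. Its levels were 0.781, 2.95, 0.541 and 0.565 CPM in Sham-Ad lib, 0.917, 0.307, 1.33 and 0.281 CPM in Sham-WM, and 8.54, 4.70, 6.70 and 1.76 CPM in VSG libraries. All VSG libraries lay above all Sham-WM libraries, and Sham-Ad lib library 4F lay above VSG library 18F. Il1b rose 7.53-fold in VSG against Sham-WM livers (log2 ratio 2.91 ± 0.65, SE, adjusted p = 0.00703). The value rests on few reads, between 5 and 26 counts in Sham-WM and between 31 and 143 in VSG libraries, and counting error alone is then wide. Against Sham-Ad lib the log2 ratio was 2.14 ± 0.62 (SE, adjusted p = 0.078) after VSG, and -0.77 ± 0.68 (SE, adjusted p = 0.568) after Sham-WM, where it was 0.18 without library 4F.

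Il1rn, whose product competes with IL-1 for its receptor and is also an acute phase protein of hepatocytes, lies on the plus strand at chr2:24336853-24351494. Its levels were 4.86, 17.7, 7.41 and 9.29 CPM in Sham-Ad lib, 2.24, 2.61, 1.38 and 1.69 CPM in Sham-WM, and 38.9, 26.5, 17.6 and 10.9 CPM in VSG libraries. Every Sham-WM library was below every other library, and VSG libraries 11F and 18F were below Sham-Ad lib library 4F. Il1rn rose 11.8-fold in VSG against Sham-WM livers (log2 ratio 3.56 ± 0.46, SE, adjusted p = 0.000413), and it was 4.94-fold lower in Sham-WM than in Sham-Ad lib livers (log2 ratio -2.31 ± 0.45, SE, adjusted p = 0.00922). It was the only one of the 10 genes called in Sham-WM against Sham-Ad lib in each of the 12 fits that left out 1 library. After VSG the log2 ratio to Sham-Ad lib was 1.26 ± 0.40 (SE, adjusted p = 0.0942 by edgeR and 0.032 by DESeq2).

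Il1r1, the signalling receptor for IL-1, lies on the plus strand at chr1:40225080-40317257. Its levels were 31.4, 91.4, 39.8 and 52.3 CPM in Sham-Ad lib, 38.9, 30.7, 27.9 and 26.9 CPM in Sham-WM, and 95.0, 135, 53.2 and 65.6 CPM in VSG libraries. Here library 8F and not 1F was the highest VSG library. Il1r1 rose 2.81-fold in VSG against Sham-WM livers (log2 ratio 1.49 ± 0.33, SE, adjusted p = 0.00664). The log2 ratios of 0.70 ± 0.32 (SE) for VSG and -0.79 ± 0.33 (SE) for Sham-WM against Sham-Ad lib did not pass the test (adjusted p = 0.205 and 0.176).

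**Figure D2:**
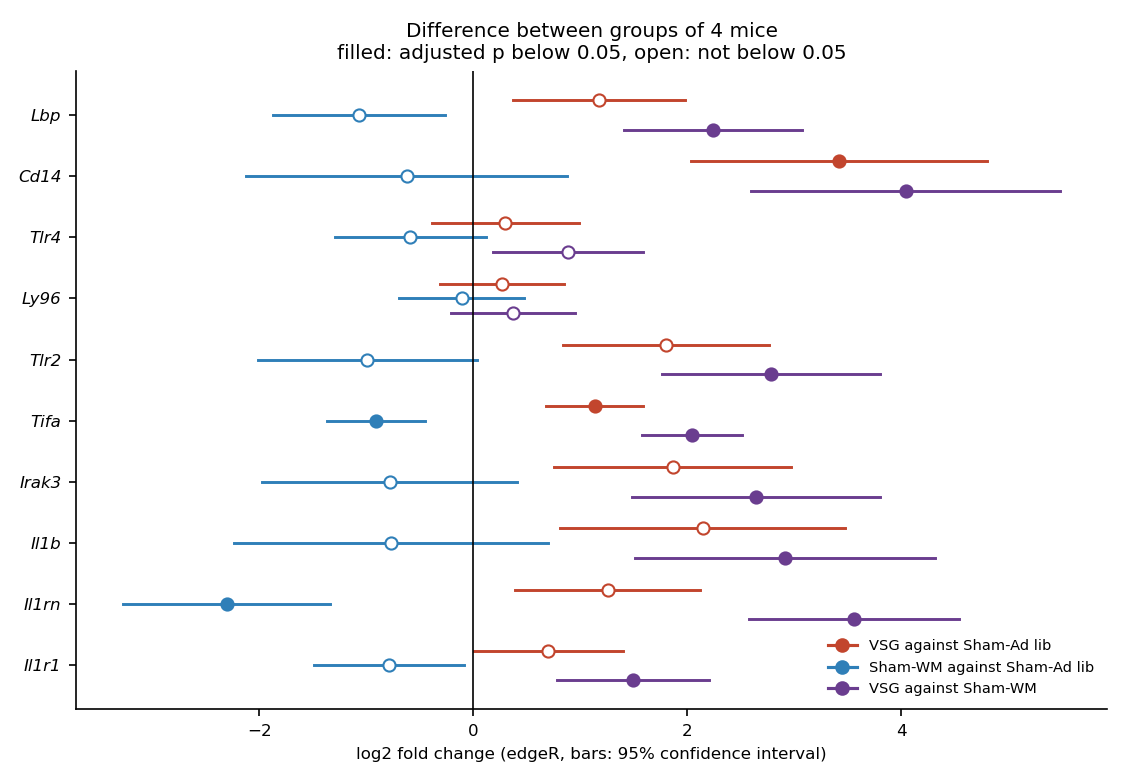
Points show the log2 ratio of each of the 10 genes in 3 comparisons of groups of 4 mice, with bars for the 95% confidence interval, filled where edgeR's adjusted p was below 0.05 and open where it was not. The 8 genes called in VSG against Sham-WM span log2 ratios from 1.49 for Il1r1 to 4.04 for Cd14, and the intervals of Ly96 include 0 in all 3 comparisons.

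Over single genes, the exact permutation test gave its smallest p of 0.0286 for the 8 genes called in VSG against Sham-WM, and p = 0.114 for Tlr4 and 0.2 for Ly96. The same smallest p was found for Cd14 and Tifa in VSG against Sham-Ad lib, and for Lbp, Il1rn and Tifa in Sham-WM against Sham-Ad lib. These p-values were not adjusted.

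Levels can be compared between genes only per length, as CPM per kilobase of exon. Averaged over the 12 libraries, Lbp was the highest of the 10 genes at 31.0 CPM per kilobase, followed by Il1r1 at 9.01, Tifa at 7.65, Cd14 at 4.88, Ly96 at 3.18, Il1rn at 2.12, Tlr2 at 1.86, Il1b at 1.28, Irak3 at 0.796 and Tlr4 at 0.306. The place of Cd14 in this order came from VSG, where its mean was 12.7 CPM per kilobase, beside 13.7 for Il1r1 and 13.5 for Tifa. In Sham-Ad lib and Sham-WM its means were 1.17 and 0.767, below those of Ly96 (3.04 and 2.82). The ratio of Il1rn to Il1b on this scale lay between 2.07 and 5.67 in Sham-Ad lib, between 0.358 and 2.93 in Sham-WM and between 0.902 and 2.12 in VSG libraries, and the 3 ranges overlapped. The ratio of Il1r1 to Il1rn lay between 10.2 and 17.6 in Sham-WM libraries, above its range of 4.49 to 5.62 in Sham-Ad lib and of 2.12 to 5.25 in VSG libraries. These ratios are descriptions and were not tested.

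Within the groups, the 10 genes tended to be high or low in the same mouse. Library 4F was the highest Sham-Ad lib library in 9 of the 10 genes, all but Tlr4, when it was the highest in 30.9% of all tested genes. Library 1F was the highest VSG library in 9 genes, all but Il1r1, against 21.1% of all tested genes, and library 18F was the lowest VSG library in 8 genes, against 23.1%. No Sham-WM library was the highest in more than 3 of the 10 genes. The 10 genes are counted in the same libraries, so the shared order was not tested. The highest VSG library exceeded the lowest by between 1.38-fold for Ly96 and 8.57-fold for Cd14, with a median of 3.24, and the median was 3.33 in Sham-Ad lib but 1.78 in Sham-WM.

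The number of genes called against Sham-Ad lib depended on single libraries. The count over all tested genes moved with it. Without library 4F, 8 of the 10 genes were called in VSG against Sham-Ad lib, all but Tlr4 and Ly96, and 903 of all tested genes, against 98 with every library. Without library 18F the counts were 7 and 1089, with Lbp, Tlr2, Irak3, Il1b and Il1rn called beside Cd14 and Tifa. They were 2 and 227 without 8F, and 1 and 69 without 11F. Without any one of the other 8 libraries, 0 of the 10 genes and between 0 and 3 of all tested genes were called, while 7 of the 10 had an unadjusted p under 0.05 in each of these fits. In VSG against Sham-WM, by contrast, 8 genes were called in 11 of the 12 fits and 9 without 11F, and in Sham-WM against Sham-Ad lib the count was 1 or 2. With 4F and 1F left out together, a choice made after these values were seen, 6 genes were called in VSG and 1 in Sham-WM against Sham-Ad lib, and 8 in VSG against Sham-WM.

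**Figure D3:**
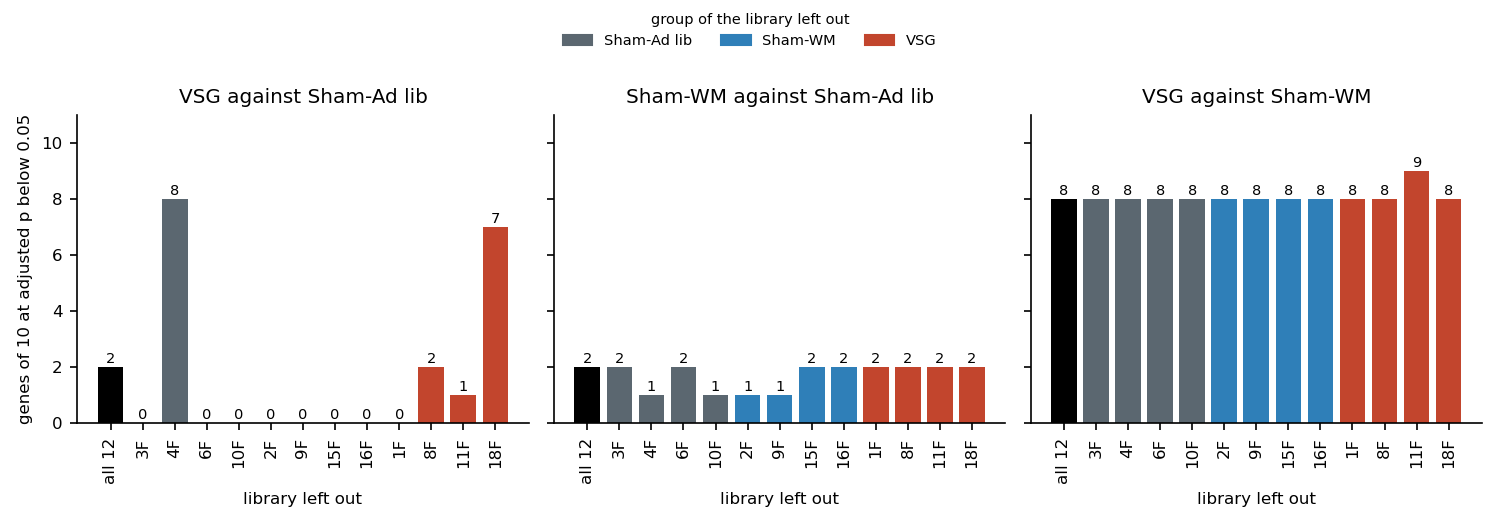
Bars give the number of the 10 genes at an adjusted p below 0.05 (edgeR) with all 12 libraries (black) and with each library left out in turn, coloured by the group of the library left out, for the 3 comparisons. The count is 8 or 9 throughout for VSG against Sham-WM, and moves between 0 and 8 for VSG against Sham-Ad lib.

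Cd14, Tlr2, Tlr4, Irak3 and Il1b are transcribed by macrophages, monocytes and neutrophils, and markers of these cells also differed between the groups. The 12 neutrophil markers, which include the granule genes Mpo, Elane, Ngp, Camp and Ltf, summed to between 1.41 and 23.3 CPM in Sham-Ad lib, between 2.66 and 4.13 CPM in Sham-WM and between 40.0 and 1165 CPM in VSG libraries. Of the 10 neutrophil markers tested, 10 were called higher in VSG against Sham-WM and 8 against Sham-Ad lib. The shares of all tested genes called higher in these comparisons were 15.0% and 0.467%. A marker with few counts in both sham groups can pass the filter on low counts only through VSG. That favours a call of higher, so the neutrophil counts are a description only. Ly6g had 0 counts in every Sham-Ad lib library, and Camp and Ly6g had 0 counts in every Sham-WM library. The 11 Kupffer cell markers, Clec4f, Vsig4 and Marco among them, summed to between 207 and 655 CPM in Sham-Ad lib, between 183 and 304 CPM in Sham-WM and between 676 and 1864 CPM in VSG libraries, with 11 of 11 called higher in VSG against Sham-WM and 3 of 11 against Sham-Ad lib. The 10 markers of recruited monocytes and macrophages summed to between 40.8 and 113.5 CPM, between 41.3 and 57.0 CPM and between 81.7 and 259 CPM in the same 3 groups, with 6 and 1 of 10 called higher. No Kupffer cell or monocyte marker was at 0 counts throughout a group.

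Within VSG, 4 of the 10 genes followed the order of these marker sums. From 1F to 8F, 11F and 18F, the neutrophil sum was 1165, 516, 151 and 40.0 CPM and the Kupffer cell sum 1864, 957, 904 and 676 CPM, and Lbp, Tlr2, Irak3 and Il1rn had the same order. In Sham-Ad lib, library 4F had the highest sum of all 3 lists, as it had the highest value of 9 of the 10 genes, but 0 genes followed the full order of the neutrophil sum. There, Lbp and Tlr2 followed the order of the Kupffer cell sum, and Cd14 and Ly96 that of the monocyte sum. Within Sham-WM, 0 genes followed the order of the neutrophil or the monocyte sum, Il1b followed that of the Kupffer cell sum, and 3 were highest in the library with the highest sum of each list. The share of all tested genes with such an order was not computed. The part of these cells in the values of the 10 genes was not tested.

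Markers of the other cell types moved in both directions, in a comparison of VSG with Sham-WM where 1962 of all 13054 tested genes were higher and 1547 lower. Of the 6 hepatocyte markers, 2 were called, Alb and Cps1, both lower in VSG than in Sham-WM, with summed levels of 96937 to 114874 CPM in Sham-Ad lib, 114657 to 141599 CPM in Sham-WM and 71855 to 114583 CPM in VSG. Of 9 sinusoidal endothelial markers, Kdr alone was called, and it was lower in VSG than in Sham-WM. Of 8 stellate cell markers 3 were called lower (Hgf, Lrat and Reln) and Rgs5 higher in the same comparison, and the lowest edgeR adjusted p among 5 cholangiocyte markers was 0.0609, for Krt19 in that comparison. Of 6 tested B and plasma cell markers 4 were higher in VSG than in Sham-WM, and of 5 tested T and NK cell markers 3.

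**Figure D4:**
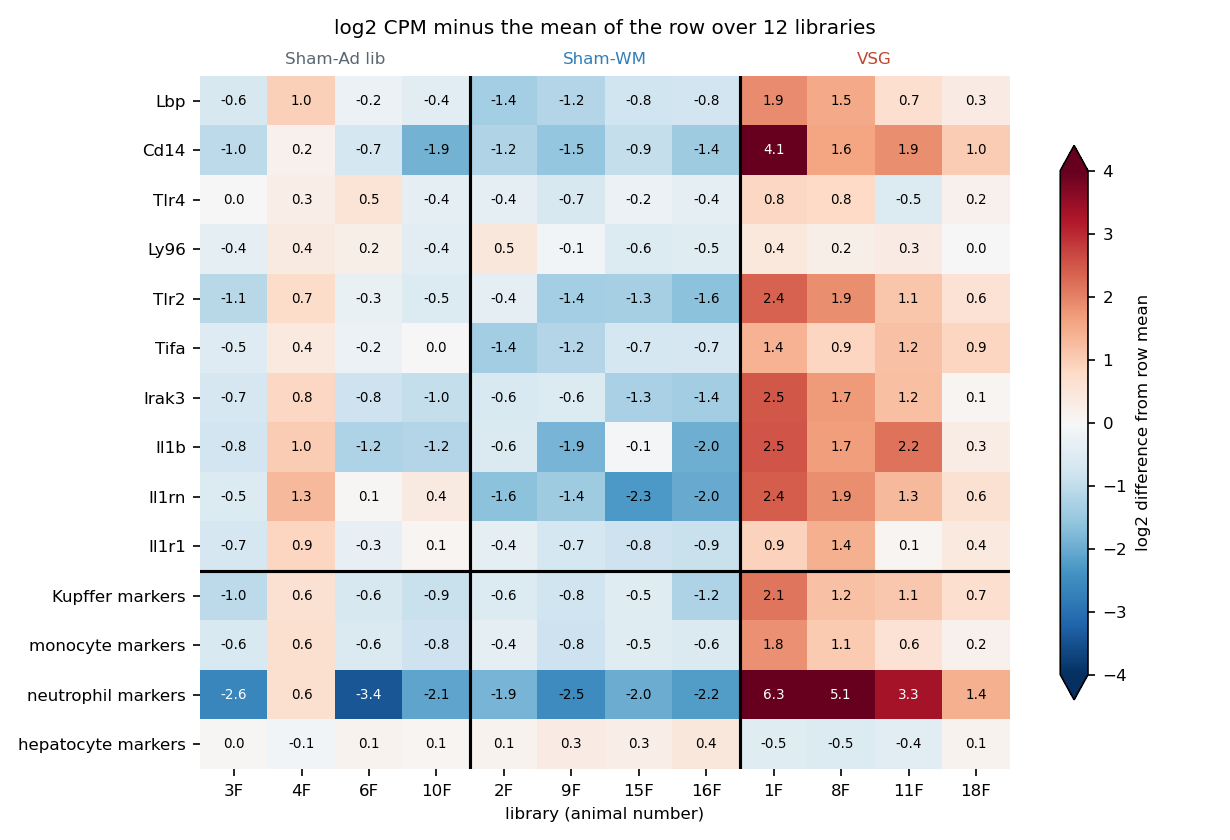
Each cell gives the log2 CPM of a gene, or the log2 of the summed CPM of a marker list, minus the mean of its row over the 12 libraries, with the Sham-Ad lib, Sham-WM and VSG libraries from left to right and the colour scale ending at 4 in either direction. Red cells fill most of the VSG columns, most strongly in 1F, and library 4F is the reddest Sham-Ad lib column for 9 of the genes and for the Kupffer cell, monocyte and neutrophil sums, whereas the hepatocyte row runs the other way in 1F, 8F and 11F.

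The genes around these 10 in the pathway were taken from lists written with earlier results of these data known. Together the 8 lists named 124 different genes, but not all of these passed the filter, so the counts below are out of fewer genes. In VSG against Sham-WM, 56 of those that passed the filter were higher and 5 lower, with a median log2 ratio of 0.93 beside 0.03 for all tested genes. Over all 13054 tested genes the counts were 1962 higher and 1547 lower. The lists were not chosen independently of these results, so their counts are descriptions. Aim2, Mefv, Nfkbia, Nfkbib, Clec4f and Orm3 were higher in VSG than in Sham-Ad lib, and the median log2 ratio was 0.51. For all tested genes that median was 0.03, with 61 higher and 37 lower. In Sham-WM, Sigirr was higher and Tlr5, Saa1, Saa2, Serpina3n and Il6ra were lower than in Sham-Ad lib, with a median of -0.29. For all tested genes the median was 0.00, with 461 higher and 451 lower, the latter 3.45% of them. Whether the lists held more such genes than the tested genes at large was not tested. The 5 genes lower in VSG than in Sham-WM were Tirap, Irak2, Map3k7, Ikbkg and Sigirr.

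Among the other Toll-like receptors and co-receptors, 6 of 11 tested genes were higher in VSG than in Sham-WM and 0 lower. Their median log2 ratio was 1.38, and 15.0% of all tested genes were called higher. Tlr1, a partner of TLR2, had a mean of 4.18 ± 1.87 CPM in VSG and 0.898 ± 0.298 CPM in Sham-WM livers (SD, n = 4), a log2 ratio of 2.20 (adjusted p = 0.00554). Tlr7 and Tlr13, receptors for microbial RNA inside cells, had log2 ratios of 2.20 (adjusted p = 0.0111) and 2.29 (adjusted p = 0.0104). Ly86, which encodes MD-1, a relative of MD-2, had a log2 ratio of 2.17 (adjusted p = 0.00263), while that of Ly96 itself was 0.37. The flagellin receptor Tlr5 was lower in Sham-WM than in Sham-Ad lib, at 8.08 ± 2.07 and 16.5 ± 4.98 CPM (SD, n = 4, adjusted p = 0.0168), and stood at 8.57 ± 1.53 CPM in VSG. Tlr5 was chosen after its values were seen, as the only gene of this list called in Sham-WM against Sham-Ad lib.

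Transcripts of the proteins that pass the signal on inside the cell moved in both directions. Of 18 tested adaptors and kinases, 2 were higher and 4 lower in VSG than in Sham-WM, with a median log2 ratio of -0.15. Among all 13054 tested genes, 1962 were higher and 1547 lower in this comparison. Myd88, the common adaptor of Toll-like and IL-1 receptors, had a log2 ratio of 0.95 (adjusted p = 0.00438), and Map3k8, the kinase TPL2, one of 1.61 (adjusted p = 0.0151). The bridging adaptor Tirap fell by 0.62 (adjusted p = 0.00601) and the kinase Irak2 fell by 0.50 on the log2 scale (adjusted p = 0.0276). Of the partners of TIFA, Alpk1, the kinase that senses heptose sugars, had a mean of 11.9 ± 5.81 CPM in VSG and 1.81 ± 0.312 CPM in Sham-WM (SD, n = 4), a log2 ratio of 2.71 (adjusted p = 0.00197). Tifab, a relative of TIFA, had a log2 ratio of 2.16 (adjusted p = 0.00289), and Map3k7, the kinase TAK1, fell by 0.47 (adjusted p = 0.0212).

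Of the other genes of the IL-1 family, 6 passed the filter, and in VSG against Sham-WM 2 were higher and 1 lower. In the same comparison 1962 of all 13054 tested genes were higher and 1547 lower. Il18, a ligand of the family, had a mean of 10.6 ± 0.453 CPM in Sham-Ad lib, 9.38 ± 0.423 CPM in Sham-WM and 14.8 ± 1.96 CPM in VSG livers (SD, n = 4), with a log2 ratio of VSG to Sham-WM of 0.66 (adjusted p = 0.00216). Il18bp, the soluble antagonist of IL-18, had a log2 ratio of 1.29 (adjusted p = 0.00737). Sigirr, an inhibitory receptor of the family, moved the opposite way, at 14.6 ± 1.20, 22.1 ± 2.23 and 15.5 ± 2.03 CPM in the same order of groups (SD, n = 4). It was higher in Sham-WM than in Sham-Ad lib (log2 ratio 0.60, adjusted p = 0.0105) and lower in VSG than in Sham-WM (-0.51, adjusted p = 0.009).

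In the list of inflammasome genes, whose products cut and release IL-1 beta, 8 of 13 tested genes were higher in VSG than in Sham-WM. None was lower, the median log2 ratio was 1.35, and 15.0% of all tested genes were called higher. Nlrp3, Nlrc4 and Pycard, which build inflammasomes, had log2 ratios of 1.83, 2.16 and 1.98 (adjusted p = 0.0176, 0.0196 and 0.0114), at mean levels in VSG of 1.96, 1.26 and 2.58 CPM. Few reads lay behind these values, with 3 to 49, 1 to 29 and 7 to 73 counts in a library, and 1 to 60 for Mefv. The means of Nlrc4 were 0.247 CPM in Sham-Ad lib and 0.277 CPM in Sham-WM. Genes as low as Nlrc4 and Mefv in the sham groups could pass the filter on low counts mainly through VSG. That favours a call of higher among the 13 genes. Mefv, which encodes the sensor pyrin, had a mean of 0.466 ± 0.238 CPM in Sham-Ad lib, 0.157 ± 0.110 CPM in Sham-WM and 2.32 ± 1.13 CPM in VSG livers (SD, n = 4), and was higher in VSG than in either sham group (adjusted p = 0.0493 and 0.000897).

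Among NF-kB subunits, inhibitors and targets, 11 of 20 tested genes were higher in VSG than in Sham-WM and 0 lower. Their median log2 ratio was 0.75, and 15.0% of all tested genes were called higher. Tnfaip3 and Nfkbiz, feedback regulators of NF-kB, had log2 ratios of 1.90 (adjusted p = 0.00745) and 1.86 (adjusted p = 0.0105). The neutrophil attractant Cxcl1 had a mean of 32.6 ± 18.9 CPM in VSG, 2.51 ± 0.676 CPM in Sham-WM and 25.2 ± 41.9 CPM in Sham-Ad lib livers (SD, n = 4), where the SD exceeds the mean, and its log2 ratio of VSG to Sham-WM was 3.70 (adjusted p = 0.0175). Ccl2, the monocyte attractant, stood at 1.84 ± 0.824 CPM in VSG and 0.171 ± 0.0907 CPM in Sham-WM (SD, n = 4, adjusted p = 0.00601), on between 1 and 60 counts in a library.

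Of 10 genes for the clearance and inactivation of endotoxin, 6 were higher in VSG than in Sham-WM and 0 lower. The share called higher over all tested genes was 15.0%. Marco, a scavenger receptor of Kupffer cells, had a mean of 125 ± 96.7 CPM in VSG and 10.1 ± 3.26 CPM in Sham-WM (SD, n = 4, log2 ratio 3.63, adjusted p = 0.00609), and Aoah, the enzyme that removes fatty acids from endotoxin, had a log2 ratio of 2.36 (adjusted p = 0.0211). Acod1, which makes itaconate in activated macrophages, stood at 1.63 ± 0.813 CPM in VSG and 0.0524 ± 0.0419 CPM in Sham-WM (SD, n = 4, adjusted p = 0.00506). Acod1 had between 0 and 41 counts in a library, near the floor, and could pass the filter on low counts mainly through VSG. Clec4f, a Kupffer cell lectin that is also among the markers above, was higher in VSG than in Sham-WM (log2 ratio 1.63, adjusted p = 0.00155) and than in Sham-Ad lib (1.44, adjusted p = 0.0435).

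Of 23 acute phase genes and their regulators, 19 were higher in VSG than in Sham-WM and 0 lower. The median log2 ratio of this list was 1.80, and 15.0% of all tested genes were called higher. Saa1 and Saa2, serum amyloid A genes, had log2 ratios of 6.33 (adjusted p = 0.00603) and 7.81 (adjusted p = 0.00611), and were lower in Sham-WM than in Sham-Ad lib (adjusted p = 0.0427 and 0.0352). Orm2 and Lcn2, an orosomucoid and a siderophore-binding protein, had log2 ratios of VSG to Sham-WM of 6.61 and 6.35 (adjusted p = 0.00365 and 0.00367). Lbp, at 2.24, was thus within the range of this list and above its median. Saa1 and Saa2 are near-identical copies, and how reads that match both were counted is not given in the sources used here.

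**Figure D5:**
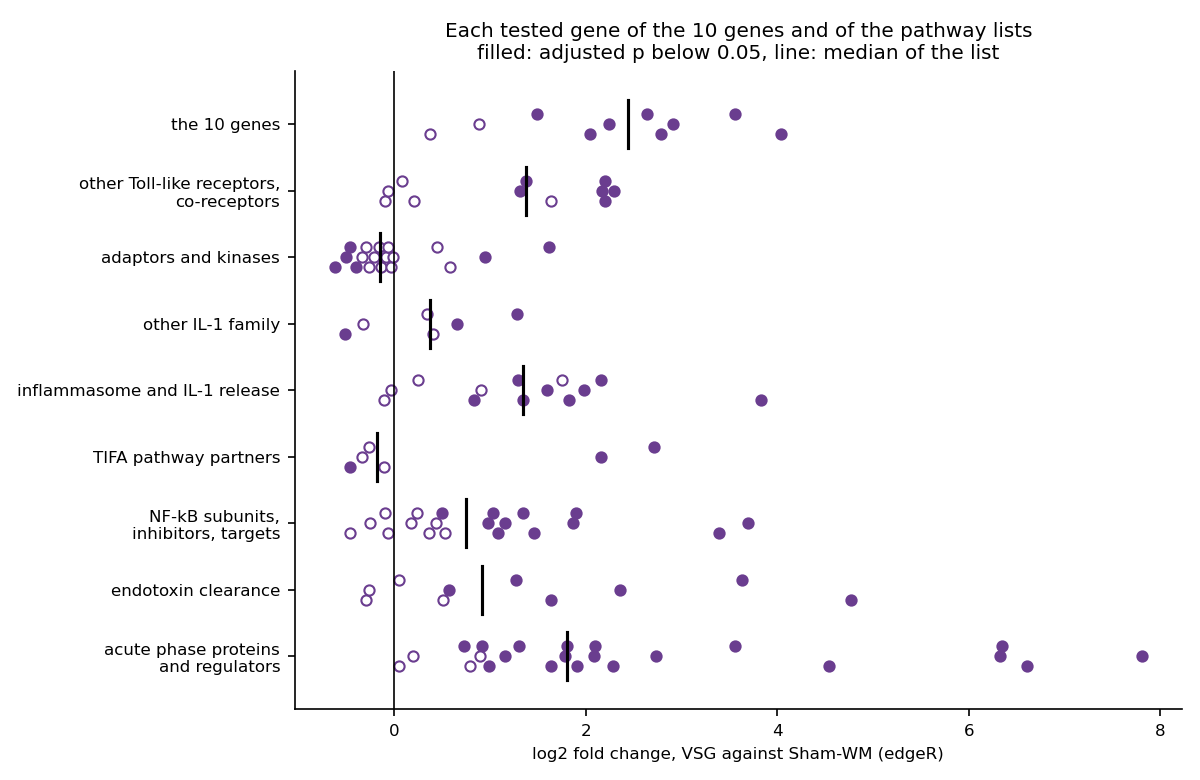
Each point is a tested gene of the 10 or of a pathway list, placed at its log2 ratio of VSG to Sham-WM, filled where edgeR's adjusted p was below 0.05, with a line at the median of the list. The medians run from -0.18 for TIFA partners and -0.15 for adaptors and kinases to 1.80 for acute phase genes and 2.44 for the 10 genes.

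For each of the 8 genes called in VSG against Sham-WM, the 3 genes with the most similar pattern over the 12 libraries were sought. Only tested genes outside the 10 were searched, and those of low mean level were left out. Similarity was the root mean square (RMS) difference in log2 CPM, each gene centred on its own mean. The closest to Lbp were Saa4, Csf1r and Atp11a, at RMS differences of 0.282, 0.302 and 0.303. Cd14 had Lyz2, Lyz1 and Fpr1 nearest to it (0.488, 0.515 and 0.590), and Il1b had Clec4n, Lyz2 and Adgre4 (0.416, 0.428 and 0.433). Alpk1 was the closest gene to Tlr2 (0.278), followed by Lrrc25 and Sirpa. Irak3 was closest to Coro1a, Plac8 and Fyb (0.256, 0.269 and 0.297). The nearest genes to Il1rn were Slc37a1, Pou2f2 and Slc13a5, at RMS differences of 0.522, 0.523 and 0.556, those to Il1r1 were Tcf19, Irf8 and Pip4k2a (0.274, 0.283 and 0.286), and those to Tifa were Zfas1, AI413582 and Gmfg (0.284, 0.290 and 0.321). These are descriptions over libraries that share their depth and groups.

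Overlapping genes touch 3 further members. Il1bos, antisense to Il1b with 25 shared exon bases, had at most 4 counts in a library. Gm43654, which shares 3.28% of the exon bases of Tifa on the opposite strand, had at most 3 counts, and Ap1ar, which overlaps Tifa on the opposite strand without sharing exon bases, had a mean of 25.0 CPM in Sham-Ad lib, 24.2 CPM in Sham-WM and 23.1 CPM in VSG livers, where Tifa had 19.7, 10.5 and 43.2 CPM. Gm38070, which overlaps Il1r1 on the same strand without sharing exon bases, had at most 9 counts.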

How the data were processed

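Poly(A) RNA of 12 mouse livers (4 mice per group) was sequenced as directional libraries. Reads had been aligned to mm10 by the authors with TopHat2 2.1.1 and assigned to genes with featureCounts, and the deposited table holds whole-number counts, 1 column per library, without normalization. The annotation release and the strand setting of the counting are not given in the sources used here. GENCODE M21 gave symbols, positions and exon lengths for 45229 of 46078 genes.

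The 10 genes, the pathway and marker lists and the naming rule were chosen with earlier results of these data known. From each pathway list, genes called in any comparison were named, at most the 4 with the largest absolute log2 ratio of VSG to Sham-WM. Genes behind a count of 6 or fewer were also named, after their values were seen.

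Libraries were grouped by animal number. Counts were tested in R 4.3.3 with edgeR 4.0.16 (limma 3.58.1) by the quasi-likelihood test on TMM-scaled libraries, in 1 fit of all 12, after filterByExpr (min.count 10, min.total.count 15). Genes were called at a Benjamini-Hochberg adjusted p under 0.05. Standard errors are the log2 ratio over the square root of the F statistic, and confidence intervals are at 95%. Promoter windows are those of RefSeq for GRCm38.p6. The alternatives were DESeq2 1.42.0, its size factors or upper quartile factors within edgeR, other filters, fits of only the libraries compared, 2 RUVr or 2 RUVs factors (written out from their definitions, since the study used RUVSeq), the other grouping of the labels, and omission of each library. The tests were checked on simulated data. Totals of 15122520 to 19384076 counts limit the precision of genes with few reads. The p-values cover the spread between mice and counting error, and reads carry no molecular identifiers.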

Additional observations from a re-analysis of the deposited data

Results flagged for a closer look

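In 30 groups of 4 libraries (10 genes in 3 groups), the gap in CPM between the highest or lowest library and its neighbour was compared with the range of the group. By Dixon's criterion 4 stood apart, where chance flags about 1 group in 20 if values are normally spread and groups independent. The 30 groups draw on the same 12 libraries, and on log2 CPM each of the 4 gaps is a smaller part of its range, so that rate does not apply directly. Of these, 3 were the same library, 4F of Sham-Ad lib. Lbp stood at 223 CPM in it, beside 98.0 CPM in the next library. Il1b stood at 2.95 CPM beside 0.781 CPM, and Irak3 at 3.54 CPM beside 1.17 CPM. The other was Cd14 in VSG library 1F, at 58.5 CPM beside 12.4 CPM. In both libraries the summed markers of neutrophils and of Kupffer cells were the highest of their group, at 23.3 and 655 CPM in 4F and at 1165 and 1864 CPM in 1F. The part of these cells was not tested.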

How the results depend on the processing

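No paired analysis was possible because the groups share no animal or replicate numbers. The direction and the number of genes called in VSG against Sham-WM, 8 of 10, held with DESeq2, with other scaling factors, with other filters and with only the compared libraries. With at least 10 counts in every library, Il1b was not tested and Tlr4 was called (log2 ratio 0.91, adjusted p = 0.0469). With RUVs factors 2 of the 10 genes were called, and 524 of all genes. With RUVr factors 5513 of all genes were called, against 3509 in the fit reported. With the other grouping of the labels, 0 of the 10 genes and 0 of all genes were called in each comparison, and 465, 715 and 158 of all genes had an unadjusted p under 0.05 for VSG against Sham-Ad lib, for Sham-WM against Sham-Ad lib and for VSG against Sham-WM.

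The count of 2 genes for VSG against Sham-Ad lib was the least stable. It was 7 with DESeq2 (1227 of all genes), 5 with no filter on low counts (628), 8 with RUVr factors (3034) and 6 without 4F and 1F together (412, chosen after seeing the data), against 98 of all genes in the fit reported. It was 0 with RUVs factors (8 of all genes, 3 of the 10 at an unadjusted p under 0.05), 0 with at least 10 counts in every library (0 of all genes, 7 of the 10 unadjusted) and 0 with only the compared libraries (0 of all genes, 7 of the 10 unadjusted).

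For Sham-WM against Sham-Ad lib the count of 2 became 5 with RUVr factors (2188 of all genes), 4 with RUVs factors (1724) and 1 without 4F and 1F together, and DESeq2 called 1433 and the compared libraries alone 1399 of all genes, against 912 in the fit reported.

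When single libraries were left out, between 0 and 8 of the 10 genes and between 0 and 1089 of all genes were called in VSG against Sham-Ad lib, between 1 and 2 and between 424 and 1311 in Sham-WM against Sham-Ad lib, and between 8 and 9 and between 2196 and 3868 in VSG against Sham-WM. The causes were not tested.

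Signs turned in few fits. Ly96 had log2 ratios of -0.13 in VSG against Sham-Ad lib and -0.12 against Sham-WM with RUVs factors. In Sham-WM against Sham-Ad lib, leaving out 1 library gave log2 ratios of Ly96 between -0.37 and 0.051, above 0 when that library was 4F, 15F or 16F, and of Il1b between -1.26 and 0.18, above 0 when it was 4F. With 4F and 1F both left out the log2 ratios were 0.050 for Ly96 and 0.18 for Il1b. With the other grouping of the labels, the log2 ratios of Sham-WM to Sham-Ad lib were 0.79 for Lbp, 0.11 for Cd14, 0.91 for Tlr2, 0.77 for Tlr4, 0.44 for Ly96, 0.88 for Il1rn, 0.89 for Il1r1 and 0.88 for Irak3, and those of VSG to Sham-WM were -0.014 for Lbp, -0.12 for Tlr4, -0.036 for Ly96 and -0.37 for Il1r1.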

Other observations

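Genes of B and plasma cells, which belong to none of the pathways above, also differed between the groups. The immunoglobulin joining chain Jchain had a mean of 1.47 ± 0.992 CPM in Sham-Ad lib, 1.26 ± 0.806 CPM in Sham-WM and 10.1 ± 4.67 CPM in VSG livers (SD, n = 4), and was higher in VSG than in either sham group (edgeR adjusted p = 0.0435 against Sham-Ad lib and 0.00205 against Sham-WM). The heavy chain gene Ighm had means of 8.87 ± 1.98, 9.77 ± 6.62 and 37.8 ± 27.3 CPM in the same order (SD, n = 4), with an adjusted p of 0.0515 and 0.00955. Of 8 stellate cell markers, Lrat, Hgf and Reln were lower and Rgs5 was higher in VSG than in Sham-WM, and the other 4 did not pass the test. Lrat stood at 28.6 ± 10.5 CPM in Sham-WM and 11.4 ± 2.05 CPM in VSG (SD, n = 4, edgeR adjusted p = 0.00174), Hgf at 8.62 ± 1.02 and 3.31 ± 1.70 CPM (SD, n = 4, adjusted p = 0.00922), Reln at 66.8 ± 6.85 and 31.9 ± 14.7 CPM (SD, n = 4, adjusted p = 0.00804) and Rgs5 at 42.4 ± 6.06 and 59.0 ± 6.46 CPM (SD, n = 4, adjusted p = 0.0191).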
